A study of Mus musculus with 5 samples.

Results

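The genes described here were 39 genes of mitosis and of the passage from G2 into mitosis (the G2/M genes). They were chosen by name and not by their values, but with earlier results of these data known. They included cyclins A and B with their kinase, mitotic kinases, kinesins, and kinetochore, spindle and cytokinesis genes. They were 39 of the 23478 genes in the count table, and all 39 had enough counts to be tested. RNA-Seq was performed on GFP-sorted lung cells at P6, with 2 control libraries and 3 Igf1r-deleted libraries. All mice carried Gli1-CreERT2, a tamoxifen-inducible Cre driven by the Hedgehog target Gli1, and the Rosa26-eGFP reporter, which Cre switches on. Controls carried 1 floxed and 1 wild-type Igf1r allele, and Igf1r-deleted mice carried 2 floxed alleles. Pups of both genotypes received 100 µg of tamoxifen on P0 and on P1. The groups therefore compare cells that can lose 1 copy of Igf1r with cells that can lose both, and no library came from mice with 2 wild-type alleles. GFP marks cells in which Cre was active and their descendants. The sources used here do not give the sex or the number of pups behind a library, so the p-values measure the spread between these libraries.

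Cells enter mitosis when CDK1, bound to cyclin A or cyclin B, is activated. Chromosomes then condense, kinetochores attach to spindle microtubules, the spindle checkpoint holds the anaphase-promoting complex until every chromosome is attached, and a contractile ring divides the cell. Many genes for these steps are transcribed together late in the cell cycle and kept low in resting cells, through promoter elements known as CHR and CCAAT boxes that bind the DREAM, MMB-FOXM1 and NF-Y complexes. IGF1R, the receptor tyrosine kinase for IGF1 and IGF2, is a growth factor receptor upstream of PI3K and ERK signaling. Lung fibroblasts divide in the first days after birth as alveolar septa form.

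The promoters of these genes share sequence that the choice of names did not use. RefSeq promoter windows of 300 bases (250 before and 50 after the annotated start, build GRCm38.p6) were found for 34 of the 39 genes. Ccna2, Incenp, Tpx2, Kif20a and Aurkb had no entry. The CHR element (TTTGAA or TTCGAA) and the CCAAT box (CCAAT) were searched on both strands. The 150 bases before the start are shown for 8 genes, with every CHR and CCAAT match in capitals. Nek2 and Bub1 had the lowest and the highest genotype difference of the 39 genes, and the other 6 lay between them and held both motifs in their windows. A match on the other strand reads TTCAAA or ATTGG.
Nek2: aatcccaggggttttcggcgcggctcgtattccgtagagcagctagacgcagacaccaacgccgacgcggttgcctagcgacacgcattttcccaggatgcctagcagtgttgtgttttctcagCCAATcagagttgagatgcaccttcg
Bub1: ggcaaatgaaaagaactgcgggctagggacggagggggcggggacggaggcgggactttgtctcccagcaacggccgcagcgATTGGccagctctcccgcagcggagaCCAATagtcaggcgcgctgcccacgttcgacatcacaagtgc
Cdk1: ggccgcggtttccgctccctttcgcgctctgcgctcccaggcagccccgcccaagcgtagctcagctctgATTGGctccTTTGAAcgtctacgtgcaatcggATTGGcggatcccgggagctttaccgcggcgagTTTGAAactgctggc
Ccnb2: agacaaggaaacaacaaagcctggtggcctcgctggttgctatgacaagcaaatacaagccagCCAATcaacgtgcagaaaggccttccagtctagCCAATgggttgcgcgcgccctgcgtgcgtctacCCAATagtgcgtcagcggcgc
Kif11: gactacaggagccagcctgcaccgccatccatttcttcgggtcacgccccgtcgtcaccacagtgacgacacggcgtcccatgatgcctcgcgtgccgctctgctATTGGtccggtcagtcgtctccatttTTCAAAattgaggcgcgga
Ckap2l: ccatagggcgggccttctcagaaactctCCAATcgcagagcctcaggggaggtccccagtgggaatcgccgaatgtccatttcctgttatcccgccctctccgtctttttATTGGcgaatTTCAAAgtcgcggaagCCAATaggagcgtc
Top2a: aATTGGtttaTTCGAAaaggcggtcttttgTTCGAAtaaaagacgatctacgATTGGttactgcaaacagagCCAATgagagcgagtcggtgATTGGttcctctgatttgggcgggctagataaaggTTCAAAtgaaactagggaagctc
Mki67: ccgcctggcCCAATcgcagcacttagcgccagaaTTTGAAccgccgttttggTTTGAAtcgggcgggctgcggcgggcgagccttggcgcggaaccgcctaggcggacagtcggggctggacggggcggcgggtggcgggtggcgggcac
These stretches lie at chr1:191821323-191821472 for Nek2, chr2:127831860-127832009 for Bub1, chr10:69352913-69353062 for Cdk1, chr9:70421555-70421704 for Ccnb2, chr19:37376232-37376381 for Kif11, chr2:129297213-129297362 for Ckap2l, chr11:99024190-99024339 for Top2a and chr7:135716380-135716529 for Mki67. Nek2 and Kif11 are on the plus strand and the others are on the minus strand. Positions are counted from the base before the annotated start, which is -1, to the first base of the match. Nek2 held CCAAT boxes at -26 and 8 and no CHR match. Bub1 held CCAAT boxes at -68 and -42 and a CHR match at 15, just past the bases shown. In Kif11 a CCAAT box at -45 was followed by a CHR element at -19. In Cdk1 CHR matches lay at -71 and -15 and CCAAT boxes at -80 and -48. Ccnb2 held CCAAT boxes at -87, -54 and -21, and its CHR matches, at -167 and 5, lay outside the bases shown. Mki67 differed in placement, with CHR matches at -116 and -98 and none nearer to the start.

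**Figure D1:**
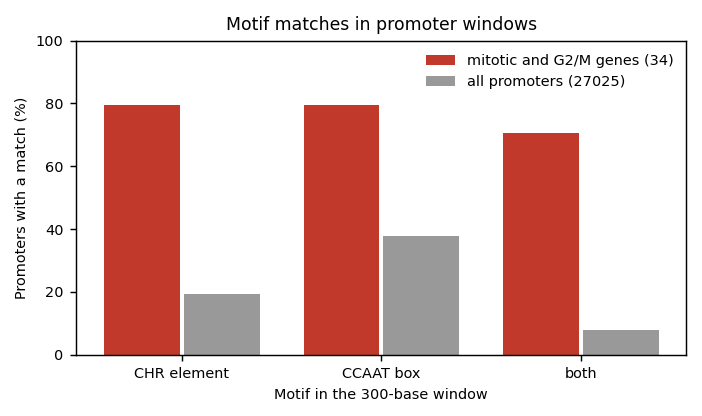
Share of promoter windows with a motif match, in percent, for the 34 mitotic and G2/M genes with a window (red) and for all 27025 genes with a window (grey). Both motifs were found in 70.6% of the mitotic windows and in 7.70% of all windows.

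A CHR element was present in 27 of the 34 windows (79.4%), against 19.4% of all 27025 promoter windows. A CCAAT box was present in 27 of 34 (79.4%) against 37.9%, and 20 of 34 (58.8%) held at least 2 CCAAT boxes against 12.2%. Both motifs were present in 24 of 34 (70.6%) against 7.70%. In 25 of 34 windows (73.5%) a CHR match started between -30 and 50, against 4.10% of all windows; this interval was set after the matches were seen. By contrast, the E2F site as searched (TTT, then a pair of bases that are each C or G, then CGC) was found in 1 of 34 windows (2.94%), near its share of 2.32% among all windows. Overlapping matches were rare, with 1 overlapping pair in Cdca8 and 1 in Ube2c. The windows of Birc5, Mad2l1, Nuf2 and Nusap1 held neither CHR nor CCAAT letters. The genotype difference of the genes with both motifs (median log2 fold change 0.23, n = 24) was like that of the other genes with a window (0.23, n = 10). A match is a description of letters and was not tested as a binding site.

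Library totals were 35116766 to 37597857 counts, and replicates within a genotype had a chi-square over genes of 23.2 to 50.7 per degree of freedom, where counting error alone gives about 1. Levels are CPM, the counts of a gene relative to the TMM-corrected total of its library. Igf1r (chr7:67952827-68233668, plus strand) was at 324 CPM in each control and at 140, 177 and 194 CPM in Igf1r-deleted libraries 1, 2 and 3, in the direction of the labels. Its log2 fold change was -0.93 (SE 0.14, adjusted p = 0.354 by edgeR's quasi-likelihood test), so the deleted gene itself did not pass in this fit. In the comparison of genotypes 0 of 15298 tested genes (0%) had an adjusted p under 0.05. The smallest adjusted p of any gene was 0.306, and 1897 genes had an unadjusted p under 0.05. Of markers of the labelled fibroblasts, Pdgfra was at 480 to 684 CPM, but genes of other cells were also present: Sftpc of type II epithelial cells at 233 to 552 CPM, endothelial Pecam1 at 40.2 to 120 CPM, the leukocyte gene Ptprc at 12.2 to 31.1 CPM and epithelial Epcam at 1.92 to 5.10 CPM.

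The mitotic genes were, in the main, higher by a small amount in the Igf1r-deleted group as a whole, and none passed the test. Their summed level was above both controls in Igf1r-deleted 1 and 2 but not in Igf1r-deleted 3. The genes were read from the same libraries and are not independent of each other. The log2 fold change was above 0 for 37 of 39 (94.9%), against 52.3% of all genes tested. Its median was 0.28, against 0.015 over all genes, and it ran from -0.04 for Nek2 to 0.69 for Bub1. Adjusted p-values ran from 0.354 to 0.998, and DESeq2 also called 0 of the 39, while it called 197 of 13219 genes (1.49%). An unadjusted p under 0.05 was found for 6 of 39 genes (15.4%), all of them higher: Bub1, Kif4, Mki67, Ccna2, Ckap2l and Top2a. Over all genes, 5.65% had such a p and were higher and 6.75% were lower. The 95% interval of the log2 fold change held 0 for the other 33 genes, and its upper bound lay between 0.45 and 1.39 over the 39 genes, which is the precision that 5 libraries gave. In bulk RNA, more cells in mitosis and more of these transcripts per cell cannot be told apart.

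**Figure D2:**
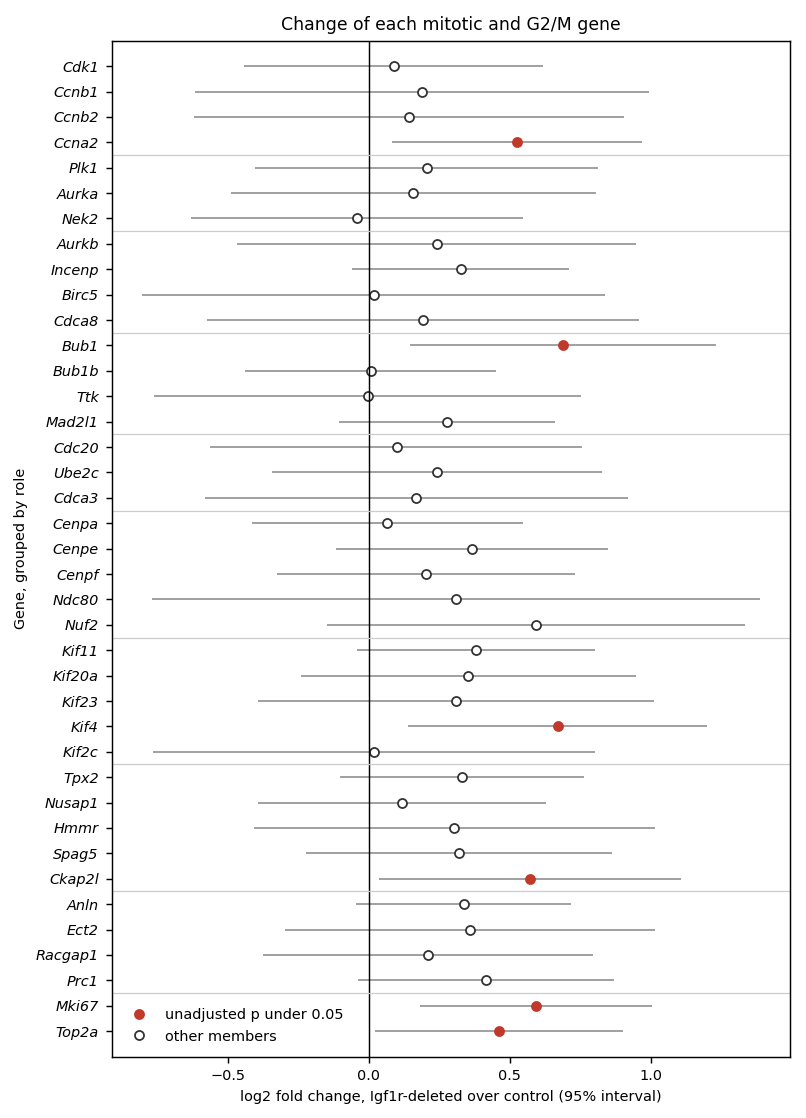
Log2 fold change of each mitotic and G2/M gene, Igf1r-deleted over control, with its 95% interval (lines) from the edgeR fit, grouped by role. Filled points mark the 6 genes with an unadjusted p under 0.05, and no gene had an adjusted p under 0.05.

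The 3 Igf1r-deleted libraries were not alike. Summed over the 39 genes, levels were 471 and 402 CPM in controls 1 and 2, and 614, 610 and 424 CPM in Igf1r-deleted libraries 1, 2 and 3. The first and second Igf1r-deleted libraries were above both controls, and the third lay between the controls. The highest of the 5 libraries was Igf1r-deleted 1 for 21 genes, Igf1r-deleted 2 for 15 and control 1 for 3. The lowest was control 2 for 18 genes, Igf1r-deleted 3 for 16, control 1 for 4 and Igf1r-deleted 1 for 1. Igf1r-deleted 2 exceeded Igf1r-deleted 3 for all 39 genes, by a median ratio of 1.47, and Igf1r-deleted 1 exceeded it for 38, by 1.5. The controls also differed, with control 1 above control 2 for 33 genes by a median ratio of 1.20. Igf1r-deleted 3 and control 2 lay close, with 16 genes higher in control 2 and a median ratio of 0.97. Over all genes tested, the median log2 difference between a pair of libraries, the first named minus the second, was between -0.02 and 0.001. The median log2 differences of Igf1r-deleted 1 and 2 over Igf1r-deleted 3, 0.58 and 0.55, exceeded the median genotype difference of 0.28.

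**Figure D3:**
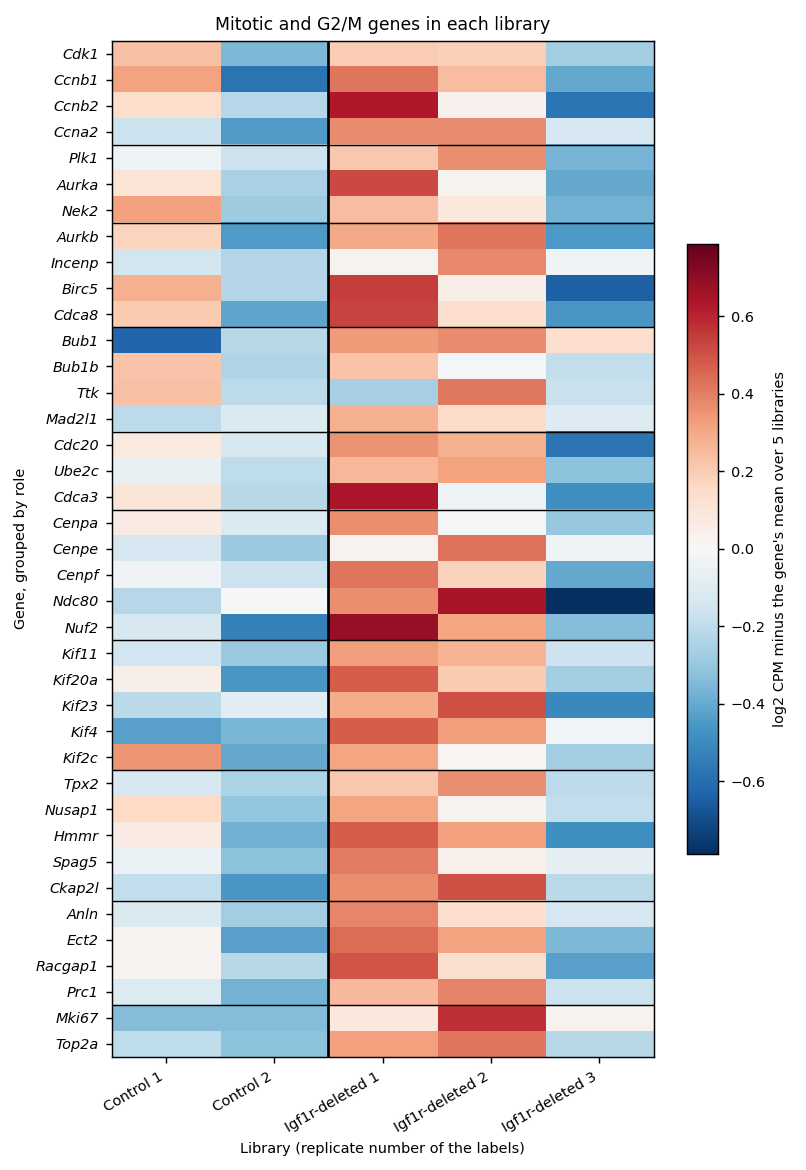
Level of each of the 39 genes in each library as log2 CPM minus the mean of the gene over the 5 libraries (colour), grouped by role, with controls left of the thick line. Igf1r-deleted 1 and 2 are mostly red, and Igf1r-deleted 3 is mostly blue except at genes such as Bub1 and Mki67.

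Every Igf1r-deleted library was above both controls for 7 of 39 genes (17.9%), against 16.0% of all genes, and every one was below both controls for 0 genes, against 14.9%. The share that was higher without overlap was near the background, and no gene was lower without overlap. The 7 genes were Ccna2, Incenp, Bub1, Mad2l1, Cenpe, Kif4 and Mki67. Without Igf1r-deleted 3, 26 genes (66.7%) were higher without overlap, against 20.6% of all genes, and without control 1 it was 22 (56.4%) against 24.4%. Without control 2, 7 genes were higher (17.9% against 32.3%) and 3 lower (7.69% against 30.3%). Igf1r-deleted 1 and 2 were both above both controls for 26 genes, while Igf1r-deleted 3 was within or below the range of the controls for 32 genes and below both for 16. Without Igf1r-deleted 3, 16 of 39 genes (41.0%) had an unadjusted p under 0.05 and were higher, against 3.17% of all genes, and the median log2 fold change was 0.42. Without control 2, 1 of 39 (2.56%) did, against 6.95% of all genes, the median was 0.13, and 25 of 39 genes were above 0. Without control 1 the count was 2 (5.13% against 1.15% of all genes), without Igf1r-deleted 1 it was 2 (5.13% against 9.40%), and without Igf1r-deleted 2 it was 1 (2.56% against 2.43%). The count of genes past an unadjusted 0.05 changed with the library left out. Each such fit also had fewer replicates, so a lower count alone does not show that the difference rested on that library. Without control 1 the median log2 fold change was 0.41, and all 39 genes were above 0.

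Among the cyclins and their kinase, Ccna2 had the largest log2 fold change and was the only gene whose groups did not overlap. Differences between genes were not tested. Ccna2 encodes cyclin A2, which acts in S phase and in the entry into mitosis. It measured 15.5 and 12.8 CPM in controls and 22.5, 22.6 and 15.9 CPM in Igf1r-deleted libraries, so the groups did not overlap, although Igf1r-deleted 3 was close to control 1. Its log2 fold change was 0.53 (SE 0.19, adjusted p = 0.364). Ccnb1, a B cyclin of the kinase that drives mitotic entry, measured 6.74 and 3.63 CPM in controls and 7.23, 6.39 and 4.09 CPM in Igf1r-deleted libraries. Ccnb2, the other B cyclin, measured 14.6 and 11.4 against 20.6, 13.6 and 8.91 CPM. Both overlapped widely, with log2 fold changes of 0.19 (SE 0.34) and 0.14 (SE 0.32), and Ccnb2 had its highest and its lowest level within the deleted group. Cdk1, the catalytic subunit, measured 15.7 and 10.5 CPM in controls and 15.4, 15.3 and 11.1 CPM in Igf1r-deleted libraries, with a log2 fold change of 0.09 (95% interval -0.44 to 0.62). Its highest level was in control 1.

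Of Plk1, Aurka and Nek2, the genes grouped here as mitotic kinases, none passed the test, and the genotypes overlapped in each. The log2 fold change was 0.21 for Plk1 (SE 0.26) and 0.16 for Aurka (SE 0.28), too imprecise to show an absence of change. Other kinases of mitosis, such as Cdk1, Aurkb, Bub1 and Ttk, are described under other roles. Plk1, which acts in mitotic entry, centrosome maturation and cytokinesis, measured 4.98 and 4.56 CPM in controls and 5.92, 6.59 and 3.98 CPM in Igf1r-deleted libraries. Aurka, the kinase of centrosomes and spindle poles, measured 10.5 and 8.16 against 13.97, 9.91 and 7.38 CPM. In both genes Igf1r-deleted 3 was the lowest library. Nek2, a kinase of centrosome separation, had the lowest log2 fold change of the 39 genes (-0.04, SE 0.25), at 11.5 and 7.61 CPM in controls and 10.9, 9.81 and 7.15 CPM in Igf1r-deleted libraries. The chromosomal passenger complex corrects faulty attachments and consists of Aurora B kinase with INCENP, survivin and borealin. Its genes differed in their order over libraries. Aurkb, the kinase, measured 10.3 and 6.69 CPM in controls and 11.2, 12.2 and 6.65 CPM in Igf1r-deleted libraries. Incenp, the scaffold, measured 12.8 and 12.01 against 14.4, 18.4 and 13.8 CPM and did not overlap (log2 fold change 0.33, SE 0.16, adjusted p = 0.451). Birc5, which encodes survivin, measured 7.23 and 5.08 against 8.70, 6.16 and 3.81 CPM, a range within the deleted group that covered both controls, with a log2 fold change of 0.02 (SE 0.35). Cdca8, which encodes borealin, had a log2 fold change of 0.19 (SE 0.33).

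Of the spindle checkpoint genes, Bub1 had the largest log2 fold change of all 39 genes and Bub1b and Ttk were near 0. Bub1, a kinase that recruits checkpoint proteins to kinetochores, measured 2.82 and 3.74 CPM in controls and 5.47, 5.63 and 4.76 CPM in Igf1r-deleted libraries. The groups did not overlap, and the log2 fold change was 0.69 (SE 0.23, 95% interval 0.15 to 1.23, unadjusted p = 0.0197, adjusted p = 0.354). Unlike most of these genes, Bub1 was lower in control 1 than in control 2. Bub1b, which encodes the checkpoint protein BUBR1, measured 17.4 and 12.6 against 17.4, 14.7 and 13.0 CPM, with a log2 fold change of 0.006 and a 95% interval of -0.44 to 0.45. Ttk, the MPS1 kinase at the top of the checkpoint, measured 2.995 and 2.21 against 2.13, 3.40 and 2.25 CPM and was the only one of the 39 genes with its lowest level in Igf1r-deleted 1. Mad2l1, the inhibitor of CDC20, measured 9.85 and 10.5 against 13.8, 12.6 and 10.6 CPM (log2 fold change 0.28, SE 0.16), and Igf1r-deleted 3 was barely above the controls. Cdc20, the activator of the anaphase-promoting complex, measured 9.62 and 8.35 CPM in controls and 11.6, 11.1 and 6.12 CPM in Igf1r-deleted libraries. Ube2c, its ubiquitin-conjugating enzyme, measured 4.98 and 4.50 against 6.21, 6.46 and 4.15 CPM. For Cdc20, Ube2c and Cdca3 alike, Igf1r-deleted 3 was below both controls, and their log2 fold changes were 0.10 (SE 0.28), 0.24 (SE 0.25) and 0.17 (SE 0.32).

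The 5 kinetochore and centromere genes all had log2 fold changes above 0, with a median of 0.31, and none passed the test. Cenpe, a kinesin that carries chromosomes to the spindle equator, measured 6.51 and 5.84 CPM in controls and 7.28, 9.58 and 6.99 CPM in Igf1r-deleted libraries, without overlap (log2 fold change 0.37, SE 0.21, adjusted p = 0.482). Cenpf, a large protein of the outer kinetochore, measured 23.0 and 20.9 against 31.5, 26.6 and 17.8 CPM. Cenpa, the histone H3 variant of centromeres, measured 14.4 and 12.7 against 17.7, 13.6 and 11.2 CPM. Cenpf and Cenpa had their lowest level in Igf1r-deleted 3. Ndc80 and Nuf2 encode partner subunits of the complex that binds microtubules. Nuf2 had a log2 fold change of 0.59 with an SE of 0.32, at 5.67 and 4.28 against 9.95, 7.70 and 4.90 CPM. Ndc80 had the lowest counts of the list, from 33 to 99 reads in a library, and the widest interval, from -0.77 to 1.39.

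Kif4 and the other kinesins had a median log2 fold change of 0.35. Kif4, a chromosome-bound motor of the spindle midzone, measured 3.69 and 3.87 CPM in controls and 6.91, 6.24 and 4.90 CPM in Igf1r-deleted libraries, without overlap. Its log2 fold change was 0.67 (SE 0.23, unadjusted p = 0.0201, adjusted p = 0.354). Kif11, the motor that pushes spindle poles apart, measured 12.1 and 11.0 against 16.9, 16.2 and 12.02 CPM, so that Igf1r-deleted 3 was just below control 1 and the groups overlapped (0.38, SE 0.18, adjusted p = 0.429). Kif23, a motor of the central spindle in cytokinesis, measured 5.73 and 6.25 against 8.13, 9.43 and 4.68 CPM, and Kif20a, another motor of the late spindle, 11.7 and 8.27 against 15.8, 13.1 and 9.38 CPM. Both had Igf1r-deleted 1 and 2 above the controls and overlapped through Igf1r-deleted 3. Kif2c, a microtubule depolymerase, had a log2 fold change of 0.02 (SE 0.33).

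Among the spindle proteins, Ckap2l had the largest difference. It measured 11.6 and 9.66 CPM in controls and 17.1, 18.8 and 11.4 CPM in Igf1r-deleted libraries, with a log2 fold change of 0.57 (SE 0.23, unadjusted p = 0.0399, adjusted p = 0.397), and the groups overlapped because Igf1r-deleted 3 was below control 1. Tpx2, an activator of Aurora A on the spindle, measured 14.3 and 13.2 against 18.1, 20.1 and 13.6 CPM. Hmmr, a microtubule-binding protein also known as a hyaluronan receptor, measured 8.27 and 6.08 against 11.0, 9.91 and 5.65 CPM. Nusap1 and Spag5, which also bind spindle microtubules, had log2 fold changes of 0.12 (SE 0.22) and 0.32 (SE 0.23). In the cytokinesis group, Anln, an actin-binding protein of the contractile ring, measured 21.7 and 19.5 CPM in controls and 30.7, 25.8 and 21.5 CPM in Igf1r-deleted libraries. Racgap1, a subunit of centralspindlin, measured 20.8 and 17.6 against 29.0, 22.4 and 15.3 CPM. The log2 fold changes were 0.34 for Anln (SE 0.16), 0.21 for Racgap1 (SE 0.25), 0.36 for Ect2 (SE 0.28), the RhoA exchange factor, and 0.41 for Prc1 (SE 0.19), a microtubule crosslinker of the midzone. In all 4 cytokinesis genes Igf1r-deleted 1 and 2 were above both controls and Igf1r-deleted 3 was not.

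Mki67 and Top2a had the highest CPM of the 39 genes. Mki67 encodes Ki-67, the proliferation marker that coats mitotic chromosomes, and measured 65.7 and 65.8 CPM in controls and 88.2, 124 and 84.9 CPM in Igf1r-deleted libraries. Every Igf1r-deleted library was above both controls, including the third, in which 32 of the 39 genes were within or below the range of the controls. The log2 fold change was 0.59 (SE 0.18, 95% interval 0.18 to 1.003), with the smallest unadjusted p of the 39 genes (0.0110) and an adjusted p of 0.354. Top2a, the topoisomerase that untangles chromosomes, measured 32.2 and 29.7 against 46.2, 49.5 and 31.9 CPM (log2 fold change 0.46, SE 0.19, unadjusted p = 0.0426, adjusted p = 0.398), and Igf1r-deleted 3 lay within the controls.

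Mki67 did not keep a fixed proportion to the other mitotic genes. It made up 13.9% and 16.4% of the summed CPM in controls and 14.4%, 20.4% and 20.0% in Igf1r-deleted libraries 1, 2 and 3. Relative to the geometric mean of the other genes, Mki67 was 7.43 and 9.06 in controls and 7.80, 11.8 and 11.8 in Igf1r-deleted libraries. The ratio was thus highest in Igf1r-deleted 2 and 3 and in Igf1r-deleted 1 lay between the controls. Without Mki67 the summed level was 406 and 336 CPM in controls and 526, 486 and 340 CPM in Igf1r-deleted libraries, and the third deleted library again lay between the controls. The ratio of Bub1, the gene with the largest fold change, to Birc5 differed more, at 0.390 and 0.737 in controls and 0.629, 0.914 and 1.25 in Igf1r-deleted libraries; this pair was chosen after its values were seen.

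The difference was greater for genes with long exons. Genes with over 5000 bases of exon in GENCODE M21 had a median log2 fold change of 0.33 (18 genes), those with 3000 to 5000 bases 0.15 (14 genes) and those with 1500 to 3000 bases 0.17 (7 genes). Over all tested genes the medians in the same classes were 0.04, 0.02 and -0.01. Across the 39 genes, Spearman's rho between exon length and log2 fold change was 0.40, against 0.098 over 14479 tested genes with a length. Genes share libraries and are not independent replicates. On a scale of CPM per kilobase of exon, the highest levels were those of Ccnb2, with means of 8.49 in controls and 9.37 in Igf1r-deleted libraries, and of Mki67, with means of 6.54 and 9.86. The lowest was that of Ndc80, at 0.226 and 0.280.

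Other genes of the cell cycle were read from lists of the same fit. Of 89 tested genes in a list of other mitotic genes, 73 (82.0%) had a log2 fold change above 0, against 52.3% of all genes. The median was 0.26. An unadjusted p under 0.05 was found for 11 (12.4%), all of them higher, against 5.65% of all genes. In 36 of the 89 (40.4%) every Igf1r-deleted library was above both controls, against 16.0% of all genes. None had an adjusted p under 0.05 by edgeR. The largest difference in that list was that of Mybl2, which encodes B-MYB, the factor that joins the MuvB core to activate mitotic genes. Mybl2 measured 2.16 and 2.48 CPM in controls and 4.90, 5.13 and 3.59 CPM in Igf1r-deleted libraries, without overlap (log2 fold change 0.97, SE 0.27, adjusted p = 0.354). Foxm1, which encodes the other main activator of these promoters and was singled out for that role, measured 27.2 and 24.1 against 36.1, 32.5 and 26.5 CPM (0.31, SE 0.15, adjusted p = 0.439). At the other end was Wee1, the kinase that inhibits CDK1, at 24.4 and 18.3 against 18.4, 16.7 and 16.2 CPM (-0.32, SE 0.15, adjusted p = 0.429).

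**Figure D4:**
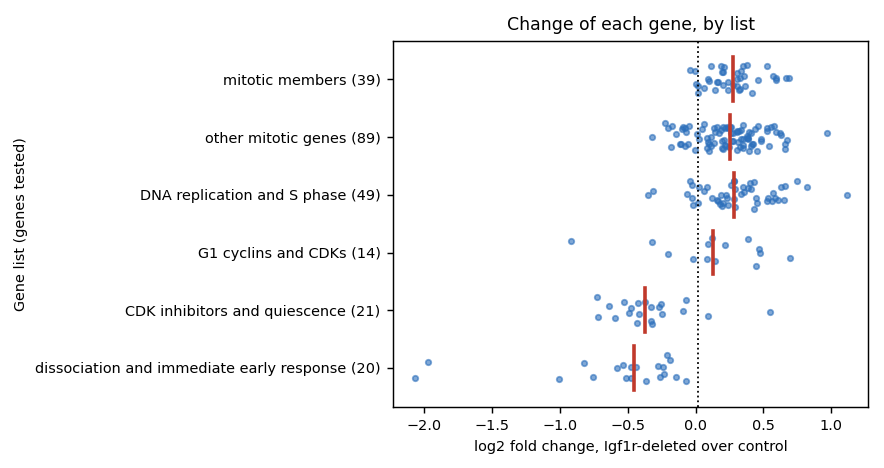
Log2 fold change of each tested gene, Igf1r-deleted over control, by list (points), with the median of each list (red bar) and of all genes tested (dotted line, 0.015). The medians were 0.28, 0.26 and 0.29 for the 3 uppermost lists and -0.37 for CDK inhibitors and quiescence genes.

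Genes of DNA replication and S phase were also mostly higher in the Igf1r-deleted libraries. Of 49 tested, 42 (85.7%) had a log2 fold change above 0, against 52.3% of all genes, and the median was 0.29. An unadjusted p under 0.05 was found for 5 (10.2%), all higher, against 5.65% of all genes. By edgeR 0 of the 49 had an adjusted p under 0.05. Their summed level was 463 and 507 CPM in controls and 657, 624 and 490 CPM in Igf1r-deleted libraries, again with the third between the controls. Cdc6, which loads the replicative helicase, was the most different, at 1.12 and 1.47 against 3.63, 2.72 and 2.12 CPM (log2 fold change 1.12, SE 0.35, adjusted p = 0.354), and E2f2 the lowest (-0.35, SE 0.28). Among 14 G1 cyclin, CDK, MYC and E2F genes, 10 (71.4%) were above 0, and 0 had an adjusted p under 0.05. An unadjusted p under 0.05 was found for 3 that were higher (21.4% against 5.65% of all genes) and 1 that was lower. That gene was Myc, at 60.1 and 35.7 CPM in controls and 32.4, 21.0 and 22.7 CPM in Igf1r-deleted libraries (-0.92, SE 0.26, adjusted p = 0.354). E2f3 was highest in the list, with a log2 fold change of 0.70 (SE 0.21).

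Most genes in a list of CDK inhibitors and quiescence genes differed in the opposite direction. Of its 21 genes, 19 had a log2 fold change below 0, while 52.3% of all genes were above 0. The median was -0.37, and 0 of the 21 had an adjusted p under 0.05. An unadjusted p under 0.05 was found for 11 that were lower, against 6.75% of all genes. The only CDK inhibitors among these 11 were Cdkn1a and Cdkn1c. Every Igf1r-deleted library was below both controls for 13 of the 21, against 14.9% of all genes. The lowest was Foxo3, a transcription factor restrained by PI3K and AKT, at 192.5 and 125 CPM in controls and 101, 91.7 and 95.7 CPM in Igf1r-deleted libraries (-0.72, SE 0.17, adjusted p = 0.354). Cdkn1a, which encodes p21, measured 130 and 84.5 against 78.7, 61.3 and 66.0 CPM. Cdkn1c, which encodes p57, measured 434 and 367.5 against 316, 285 and 296 CPM, with the groups apart. Cdkn2c, which encodes the CDK4 and CDK6 inhibitor p18, was higher (0.55, SE 0.19, adjusted p = 0.363). The median of this list was -0.15 without control 1 and -0.60 without control 2. Genes of the immediate early and dissociation response, which cell isolation can induce, were below 0 for 20 of 20, with a median of -0.45, and summed to 29260 and 24860 CPM in controls and 19450, 18280 and 20990 CPM in Igf1r-deleted libraries. The largest fall among them was that of Hspa1a, at 985 and 1122 CPM in controls and 521, 119 and 114 CPM in Igf1r-deleted libraries (-2.07, SE 0.63, adjusted p = 0.354). An unadjusted p under 0.05 was found for 11, all lower, against 6.75% of all genes. Every Igf1r-deleted library was below both controls for 12, against 14.9% of all genes. The part of these genes in the mitotic levels was not tested.

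**Figure D5:**
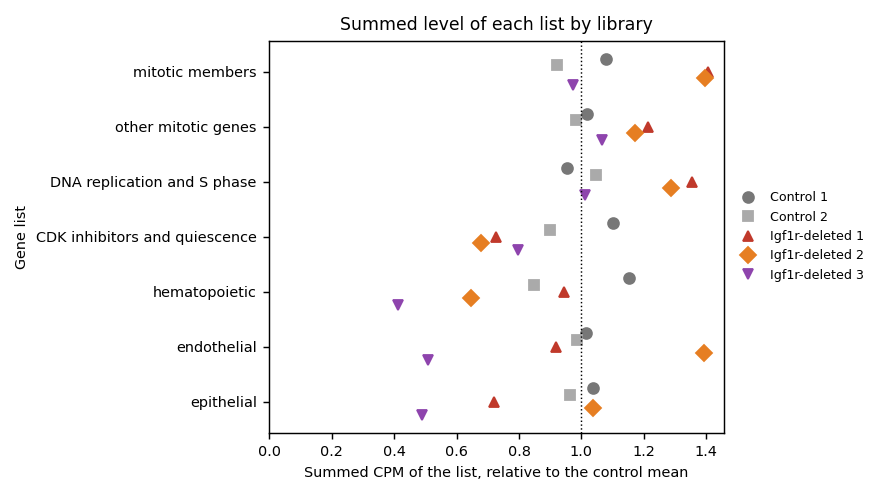
Summed CPM of 7 gene lists in each library, divided by the mean of the 2 controls (dotted line at 1). The mitotic genes were at 1.41 and 1.40 in Igf1r-deleted 1 and 2 and at 0.972 in Igf1r-deleted 3, and the endothelial and epithelial markers were lowest in Igf1r-deleted 3.

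Markers of other cells also varied over the libraries. The 15 hematopoietic markers were all below 0 (median -0.81), while 52.3% of all genes tested were above 0. Their summed levels were 657 and 484 CPM in controls and 539, 369 and 235 CPM in Igf1r-deleted libraries. The 14 endothelial markers summed to 681 and 662 CPM in controls and 617, 935 and 341 CPM in Igf1r-deleted libraries, and the 16 epithelial markers to 1240 and 1154 against 860, 1242 and 585 CPM. All 3 lists were lowest in Igf1r-deleted 3, while the summed mitotic level was lowest in control 2 (402 CPM) and next lowest in Igf1r-deleted 3 (424 CPM). Pecam1 measured 90.8 and 89.9 against 78.9, 120 and 40.2 CPM, and Sftpc 530 and 543 against 380, 552 and 233 CPM. The 20 myofibroblast markers summed to 5493 and 6020 CPM in controls and 6145, 7249 and 6910 CPM in Igf1r-deleted libraries. Of these markers, 16 (80.0%) were above 0, against 52.3% of all genes. The median was -0.11 for matrix fibroblast and lipofibroblast genes (18), 0.015 for pericyte genes (14) and -0.30 for mesothelial genes (8). With 0 of the 15298 tested genes at an adjusted p under 0.05, none of these lists could hold one. Among erythroid genes Hba-a2, Hbb-bs and Hbb-bt were listed at 0 in every library, and the list summed to 2.42 to 6.55 CPM. The part of these cells in the mitotic levels was not tested.

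Several of these genes share sequence with others, and the sources used here do not say whether counting used strand. Exons on the opposite strand covered 29.3% of the exon bases of Kif20a (by Cdc23), 22.8% of Ube2c (by Tnnc2), 15.1% of Kif4 (by Pdzd11), 12.5% of Ccna2 (by Exosc9) and 11.1% of Prc1 (by Rccd1). Other loci shared sequence of 31 bases with Ccnb1 (27.8% of its 31-base words, mainly with Ccnb1-ps), Cdc20 (26.7%, mainly Gm7856) and Plk1 (18.7%, mainly Plk-ps1). The values of these genes are uncertain, since how many of their counts came from such shared sequence was not tested.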

How the data were processed

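RNA-Seq reads were trimmed with Trim Galore, aligned to mm10 with Bowtie2 and counted on genes with GenomicAlignments; versions, annotation and strand setting are not given in the sources used here. The authors deposited raw counts per gene symbol, without normalization, for 2 control and 3 Igf1r-deleted libraries (labelled Control and Mutant), which are their own groups. Depth was 35116766 to 37597857 counts, and a member had 33 to 4948 counts in a library. A count limits counting error only, and the spread between libraries sets the precision.

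Counts of all 23478 genes were fitted in R 4.3.3 with edgeR 4.0.16 and limma 3.58.1, using the quasi-likelihood test (two-sided), TMM factors, filterByExpr by group and a model of genotype alone. The p-values of the 15298 genes that passed the filter were adjusted together by the Benjamini-Hochberg method. Calls were made at an adjusted p under 0.05. The fit was tested on simulated counts, drawn independently for each gene, with known changes larger than those of the mitotic genes. That test does not cover changes as small as theirs or shifts shared by many genes. With 2 libraries against 3, the smallest exact permutation p for 1 gene is 0.1. Alternatives were DESeq2 1.42.0, limma voom, other scaling factors, looser and stricter filters, a replicate block and leaving out each library. DESeq2 gave 5426 adjusted p-values as NA.

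The mitotic genes, the comparison lists and the markers were chosen with earlier results of these data known, so their counts and medians are descriptions without a test of a list. Per-library values were given for 1 or more genes of each role, for every gene with an unadjusted p under 0.05 and for the genes at both ends. In the comparison lists, the largest rise and the largest fall at a mean of at least 1 CPM were named, and other genes were named for their role or after their values were seen. Sgol2a, Haspin, Adgre1 and Ahsp were not matched under those names. Positions, exon lengths and overlaps came from GENCODE M21 on mm10, where all 39 genes were matched by symbol, and promoter windows came from RefSeq.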

Additional observations from a re-analysis of the deposited data

How the results depend on the processing

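No mitotic gene had an adjusted p under 0.05 under any of the 13 alternatives; the smallest adjusted p of a member was 0.0528, for Top2a under the replicate block. Over all genes, edgeR called 0, DESeq2 197 and the replicate block 136, and leaving out 1 library gave 0 to 45 calls, the most without control 2. The members with an unadjusted p under 0.05 numbered 6, and 19 under the replicate block (48.7% against 6.10% of all genes that were higher), while leaving out 1 library gave 1 to 16 (2.56% to 41.0% against 1.15% to 9.40%). The replicate numbers 1 and 2 are shared by the genotypes, but no label ties them to a litter or batch. Number 3 belongs to Igf1r-deleted 3 alone. The block therefore takes that library out of the genotype difference, as does the fit without Igf1r-deleted 3 (median 0.42). Same-numbered libraries correlated by 0.208 and 0.121 in their deviations from the group means, over 2 pairs. Control 2 and Igf1r-deleted 3, which share no number, correlated by 0.119, and the other pairs gave -0.208, -0.121 and -0.119. With 2 controls, their deviations mirror each other, so these values are not separate checks. The block is no more than an alternative. Members without overlap numbered 7, and 14 (35.9% against 22.4% of all genes that were higher) with library totals in place of TMM, which moved the median of all genes to 0.09, and 7 to 26 without 1 library. The median of the members stayed above 0 in all alternatives, from 0.13 without control 2 to 0.43 under the block. Where 1 control was left out, the lone control was assumed to vary like the other group. Of 507 member values under alternatives, 38 were of the opposite sign, in 16 genes. Bub1b was -0.003 by DESeq2, -0.004 with its size factors and -0.00041 with the stricter filter, Birc5 was -0.035 by voom, Nek2 0.031 with library totals and 0.14 under the block, and Ttk 0.079 with library totals, 0.009 with upper-quartile factors and 0.069 under the block. Without 1 library, the log2 fold change ran from -0.12 to 0.35 for Aurka, -0.047 to 0.58 for Aurkb, -0.30 to 0.29 for Birc5, -0.22 to 0.25 for Bub1b, -0.20 to 0.70 for Ccnb1, -0.21 to 0.39 for Ccnb2, -0.066 to 0.34 for Cdc20, -0.19 to 0.39 for Cdca3, -0.10 to 0.53 for Cdca8, -0.19 to 0.41 for Cdk1, -0.13 to 0.21 for Cenpa, -0.32 to 0.43 for Kif2c, -0.32 to 0.28 for Nek2, -0.11 to 0.36 for Nusap1, -0.031 to 0.42 for Racgap1 and -0.25 to 0.23 for Ttk. The cause of these changes was not tested. The depth gave 33 to 99 counts for Ndc80, the gene it limits most.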
